A study of Mus musculus with 9 samples.

Results

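EYFP+ luminal mammary cells labelled as deleted for the Hippo kinases LATS1 and LATS2 were compared with control cells across all genes. Receptors, transcription factors, secreted proteins and transporters were taken as classes. The comparison covers 6 of the 9 RNA-seq libraries of the series, chosen by their column names, 3 from mice with the reporter lsl-EYFP and the driver K8CreERT2 alone (control) and 3 from mice that carried LATS1/2f/f beside both transgenes (LATS1/2-KO). The other 3 libraries, from mice that also carried Sox9f/f, enter the model only as a separate group. All mice were adult and nulliparous and carried the Cre driver and the reporter, and all received 2 mg of tamoxifen on 5 days, so the control cells had also met tamoxifen and Cre. The glands were dissociated 7 days after the last dose and live EYFP+ cells were sorted by FACS. The Krt8 promoter drives the Cre, so EYFP marks cells that expressed keratin 8 at the time of tamoxifen, and their progeny, whatever they have become. The labels do not say whether the 3 libraries of a group are separate mice, and p-values then measure only the spread between these libraries.

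LATS1 and LATS2 are kinases at the core of the Hippo pathway. They phosphorylate the co-activators YAP and TAZ, which are then kept out of the nucleus, and without the kinases YAP and TAZ bind TEAD factors and activate their target genes. The luminal layer of the mammary gland holds hormone-sensing cells, which carry the oestrogen, progesterone and prolactin receptors and signal to their neighbours, and progenitor cells that can give rise to milk-producing alveolar cells.

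The values are read counts per gene as deposited, from 44167762 to 47003587 in total in the control libraries and from 50508666 to 61745346 in those labelled LATS1/2-KO. Normalized counts, in which every library is brought to the average effective size of the 9, are the unit of all values given unless TPM (a scale that also corrects for gene length) is named. The targeted genes were examined first, with positions on the mouse build GRCm38.p6, the patched form of the mm10 assembly used for the counts. Lats1 (ENSMUSG00000040021, chromosome 10 from 7681214 to 7716460, plus strand) had 5672, 5929 and 5940.4 normalized counts in the control libraries and 2090.1, 1923 and 2336 in those labelled LATS1/2-KO (log2 fold change -1.47 with a standard error of 0.11, and adjusted p = 7.07e-06 by the quasi-likelihood test of edgeR). Lats2 (ENSMUSG00000021959, chromosome 14 from 57689662 to 57758388, minus strand) did not fall, with 1039, 865 and 1219.7 in control and 1256, 1434 and 1723 in the other group (log2 fold change 0.50 with a standard error of 0.20, and adjusted p = 0.0571 by that edgeR test). Gene-level counts cannot show whether the floxed exons are missing. Because Lats2 did not fall and these counts cannot show the deletion, the 3 libraries are called the libraries labelled LATS1/2-KO, or the labelled libraries. Every direction given is that of these libraries against control. Lats2 is itself 1 of the 22 YAP/TAZ target genes left out of the class ranks. The study's reporting summary states that its RNA-seq showed the genetic changes expected of the mouse models.

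Of 19357 genes tested, 3314 (17.1%) were called higher and 3391 (17.5%) lower, a call being an absolute log2 fold change above 1 with an adjusted p of at most 0.05, and 34.6% were called in either direction. The median log2 fold change over all tested genes was 0.04. The 3 libraries of each group did not overlap at 61.6% of all tested genes, so a lack of overlap is common here. Where edgeR called 0 genes of a list in a direction, DESeq2 also called 0, and the number of its genes with an unadjusted p under 0.05 in that direction is given beside it. The classes differed in how their calls split. Among the 912 genes listed as secreted proteins, 551 were tested, 221 (40.1%) rose and 125 (22.7%) fell, with a median log2 fold change of 0.67. Of 485 receptor genes, 331 were tested, 60 (18.1%) rose and 108 (32.6%) fell, with a median of -0.42. The 499 transcription factor genes gave 296 tested, 50 (16.9%) higher and 94 (31.8%) lower, with a median of -0.36. Transporters and channels (725 genes, 491 tested) also had more losses than gains, with 89 (18.1%) higher, 152 (31.0%) lower and a median of -0.51.

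Fold change moved with the GC content of the transcripts. Genes with 40% to 45% GC had a median log2 fold change of 0.43 and genes with 55% to 60% GC one of -0.45, and the share called lower went from 7.64% to 29.4% between these bins. With the counts of each library adjusted for GC content, 224 secreted genes rose and 120 fell, 58 receptors rose and 92 fell, 52 transcription factors rose and 75 fell, and 91 transporters and channels rose and 144 fell. The losses of transcription factors were therefore the most reduced of these by the adjustment, and list counts that it changed by more than 1.5 times are given with both values in the lists that follow. Whether the relation with GC content is technical was not tested.

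**Figure D1:**
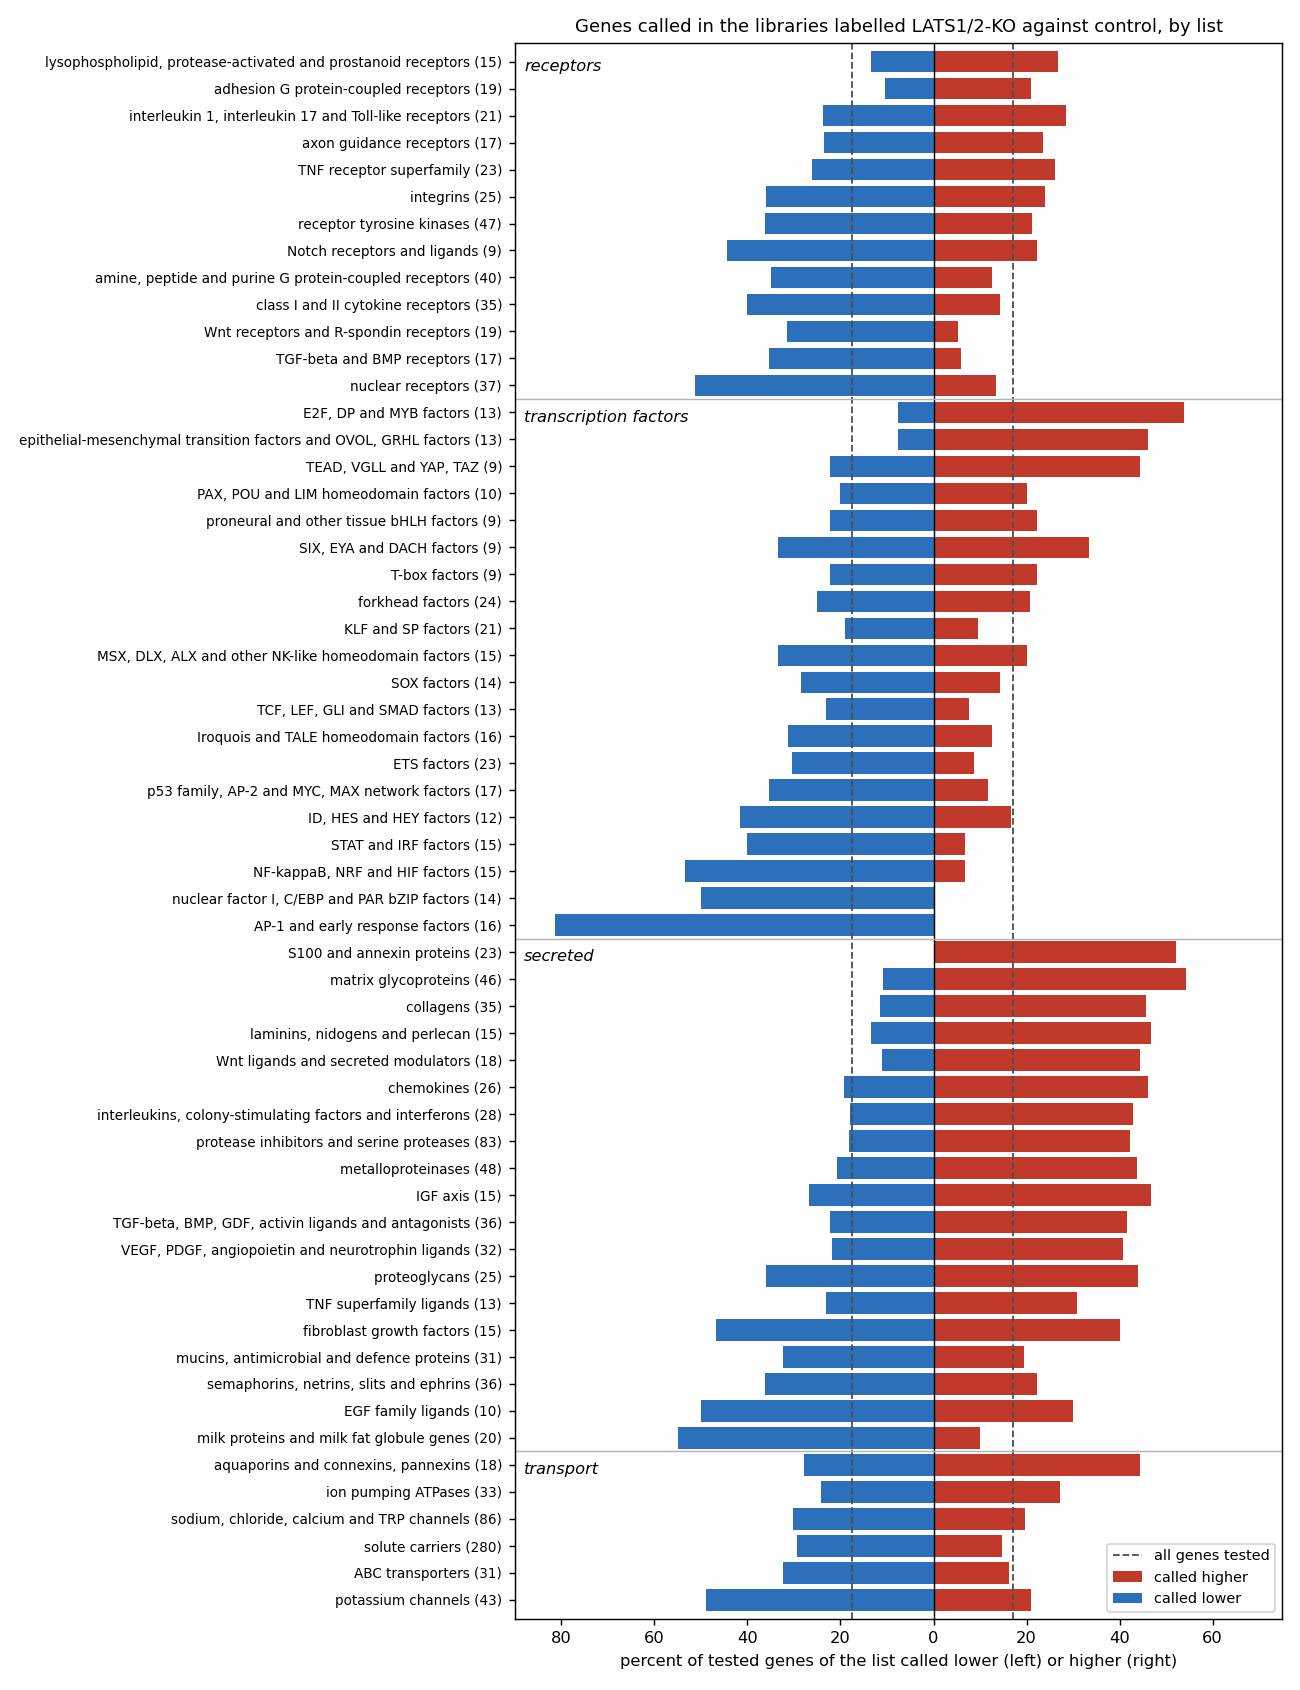
Percent of tested genes called lower (left, blue) or higher (right, red) in the libraries labelled LATS1/2-KO, for each gene list of the classes with at least 9 tested genes (number tested in parentheses), with dashed lines at the shares over all genes tested, 17.5% and 17.1%. The matrix glycoproteins and the E2F, DP and MYB factors reach furthest to the right, and the AP-1 and early response factors and the milk proteins furthest to the left.

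Gains and losses called the largest were ranked, except where TPM is named, by the difference of the group means of log2(normalized count + 10), a scale on which genes with few counts rank lower than by the fitted log2 fold change. The 6 genes a direction of each class and the 8 outside all lists were taken only from genes whose libraries did not overlap. For these genes a lack of overlap was thus fixed by the choice. By this rank the receptor with the largest gain was Rarb (ENSMUSG00000017491, chromosome 14 from 16430839 to 16819156, minus strand), which encodes the retinoic acid receptor beta, a nuclear receptor that is itself a target of retinoic acid. It had 26.7, 29.5 and 8.71 normalized counts in the control libraries and 1358, 1940.2 and 1208 in the labelled libraries (69.5-fold, log2 fold change 6.10 ± 0.39 SE, adjusted p = 2.85e-06 from edgeR's test). Receptors with no counts in control, such as Gpr37 with 115, 95.7 and 280.0 in the labelled libraries, had larger fitted log2 fold changes. Nrp2, a co-receptor for class 3 semaphorins and for VEGF-C, rose from 40.6, 81.6 and 59.7 to 3852, 2604 and 3043 (52.2-fold, adjusted p = 2.54e-06 from edgeR's test). Flt4, the VEGF-C receptor that is best known from lymphatic endothelium, went from 15.1, 1.13 and 6.22 to 246, 208 and 620.2 (47.8-fold). In each of these genes the lowest labelled library lay above the highest control library. Vegfc, the shared ligand, named here after its values were seen, rose from 107 ± 14.96 to 926 ± 55.7 (SD, n = 3). Kdr, a further VEGF receptor and a marker of endothelial cells, rose from 30.2, 2.27 and 43.6 to 101, 106 and 202 (adjusted p = 0.0179 from edgeR's test), a call lost without labelled replicate 3. Of the 10 endothelial markers tested, Kdr rose, Egfl7 fell and the other 8, Pecam1 and Cdh5 among them, were not called (log2 fold changes of these genes -0.26 and 0.84). The summed TPM of the 10 markers was 13.4, 11.2 and 12.1 in control and 12.6, 11.2 and 12.2 in the labelled libraries, and a part of endothelial RNA in the gains of Flt4, Kdr, Nrp2 and Vegfc was not tested.

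Some G protein-coupled receptors were among the gains, while their lists moved in both directions. The list of lysophospholipid, protease-activated and prostanoid receptors had 4 higher and 2 lower of 15 tested (median log2 fold change -0.71), and that of amine, peptide and purine receptors 5 higher and 14 lower of 40 (median -0.47). The adhesion G protein-coupled receptors had 4 higher and 2 lower of 19 (median 0.77). F2r, the thrombin receptor PAR1, rose from 122.9, 126 and 56.0 to 3919, 3837 and 4276 (39.5-fold, adjusted p = 1.06e-05 from edgeR's test), and F2rl1, the related receptor PAR2, from 3487, 3689 and 2005 to 10276, 11977 and 11676. Lpar1, a receptor of lysophosphatidic acid, had a mean of 92.1 ± 47.1 in control and 367 ± 119 in the labelled libraries (SD, n = 3). Both thrombin and lysophosphatidic acid are known to signal through G proteins that regulate the Hippo kinases. Bdkrb2, the bradykinin B2 receptor, had 5.80, 4.54 and 2.49 in control against 149, 247 and 300.1, and the adhesion receptor Adgrg2 182, 149 and 57.3 against 2152, 2666 and 2234 (18.2-fold). Control values of Bdkrb2 rest on few reads, whereas those of F2r and Adgrg2 do not. No labelled library of these genes lay as low as a control library, which for F2r, Bdkrb2 and Adgrg2 was a condition of their choice.

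Nuclear receptors were the receptor list with the largest share of losses. Of 49 genes, 37 were tested, 5 rose and 19 fell, with a median log2 fold change of -1.17 against 0.04 for all genes. The oestrogen receptor alpha gene Esr1 fell from 9731 ± 2549 to 862 ± 395 (SD, n = 3) and the progesterone receptor gene Pgr from 22685 ± 6622 to 379 ± 269 (SD, n = 3). The oestrogen-related receptors are orphan receptors that control energy metabolism, and Esrrb and Esrrg fell while Esrra was not called (log2 fold change -0.33). Esrrb went from 1720.1, 1264 and 408 to 2.01, 0.847 and 34.7 (90.4-fold lower, adjusted p = 0.000809 from edgeR's test). Esrrg fell from 703 ± 48.7 to 14.7 ± 8.37 (SD, n = 3). Nr4a1, an orphan receptor induced as an early response gene and the most counted of the list, fell from 36041, 31348 and 26379 to 4848, 2940.0 and 3754 (log2 fold change -3.02). The 5 that rose were Rarb, Nr1h5, Esr2, the glucocorticoid receptor Nr3c1 and the vitamin D receptor Vdr. Esr1, Esrra, Nr3c1 and Vdr fall outside the rule for named genes and were named after their values were seen. Nr3c1 rose from 2840.5, 2563 and 2315 to 6008, 5815 and 4795 and Vdr from 4543, 4690.2 and 2765 to 4924, 11254 and 7970.2. These gains lay near the threshold, and Nr3c1 was not called with GC adjustment (log2 fold change 0.76) nor Vdr with DESeq2. Esr2 had no counts in control and 8.02, 16.9 and 11.9 in the labelled libraries. The data are from bulk RNA, in which fewer hormone-sensing cells among those sorted and less of these RNAs per cell cannot be told apart.

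Cytokine receptors fell too, with 14 lower and 5 higher of 35 tested (median log2 fold change -0.94). The losses included Lifr and Cntfr, receptors that act together with gp130. Lifr, the receptor of leukaemia inhibitory factor, had 11098, 13543 and 15072 in control and 458, 296 and 534 in the labelled libraries (30.8-fold lower, log2 fold change -4.95 ± 0.31 SE, adjusted p = 2.68e-06 from edgeR's test). Cntfr, the receptor of ciliary neurotrophic factor, fell from 1834 ± 626 to 255 ± 217 (SD, n = 3). Lif, the ligand, fell from 25561, 26175 and 10987 to 6012, 3620.3 and 4999.7, and the signal transducer Stat3 from 49483, 46293 and 35789 to 10551, 12624 and 15192, so that ligand, receptor and transducer were lower at once. Outside this list, Il1rl1, the interleukin-33 receptor, fell from 4999, 11929.7 and 9227 to 253, 25.4 and 41.0 and its libraries did not overlap.

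Among the remaining receptors that fell most were Dscam, Fzd10 and P2ry4. Dscam, a homophilic adhesion molecule of neurons, had 3679, 5196 and 4625 in control, while the labelled libraries held 0, 0 and 12.8. Fzd10, a Wnt receptor, had 841, 962 and 421 against 10.03, 1.69 and 30.1 (53.2-fold lower), and P2ry4, a receptor of extracellular nucleotides, 276, 621 and 645 against 0, 6.78 and 10.03. The Wnt receptor list as a whole had 6 genes lower and 1 (Fzd1, 688 ± 212 to 2698 ± 625, SD, n = 3) higher of 19 tested, and 7 lower and 2 higher after the GC adjustment. The TGF-beta and BMP receptor list had 6 lower and 1 (Acvr2a, 1028 ± 72.7 to 2336 ± 685, SD, n = 3) higher of 17. Acvr2a was not called with GC adjustment (log2 fold change 0.73).

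Receptor tyrosine kinases moved in both directions, 10 higher and 17 lower of 47 tested. The losses were led by Alk (367 ± 193 to 2.67 ± 4.63, SD, n = 3), Ror2 (851 ± 278 to 43.2 ± 31.2, SD, n = 3) and Erbb4 (782 ± 229 to 56.0 ± 9.50, SD, n = 3), the neuregulin receptor that acts on STAT5 in alveolar cells. The gains were led by Flt4, by Csf1r and by Ror1, a kinase of the Wnt system, which went from 309.7, 422 and 153 to 1175, 3566 and 3136. Ror1 and Ror2, close relatives, thus moved in opposite directions. Csf1r, the receptor of CSF1 and a macrophage marker, rose from 208, 128 and 139 to 2804, 2374 and 1753, and its ligands rose with it, Il34 from 38.3, 19.3 and 46.0 to 1574, 1356 and 1641 and Csf1, named after its values were seen, from 2158 ± 678 to 9814 ± 2738 (SD, n = 3). Of the 13 macrophage and leukocyte markers 5 rose, among them Csf1r itself, C1qb (log2 fold change 4.04) and C1qc (3.68), and 0 fell (0 at the unadjusted p). The pan-leukocyte marker Ptprc was not called (log2 fold change 0.89), with 40.6, 55.6 and 17.4 in control and 166, 34.7 and 10.9 in the labelled libraries. A part of macrophage RNA in the Csf1r gain was not tested.

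Integrins, the receptors of the extracellular matrix, had 6 members higher and 9 lower of 25 tested, and the GC adjustment left 5 higher and 5 lower. Itgb6, an epithelial subunit of an integrin that binds latent TGF-beta, rose from 705, 875 and 1404 to 14220.5, 9493 and 9798, and Itgb1, the common beta subunit and the most counted of the list, from 30044, 28970.3 and 33709 to 129534, 121860.0 and 119978 (log2 fold change 2.00 and adjusted p = 3.11e-06 from edgeR's test). Notch receptors and ligands gave 4 lower and 2 higher of 9, with 1 lower after the GC adjustment and 2 lower without labelled replicate 2. Notch3 fell from 21687, 20156 and 16615 to 4051, 1554 and 3412, and Dll1, a ligand, rose from 115, 118 and 108 to 709, 714 and 1001.

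**Figure D2:**
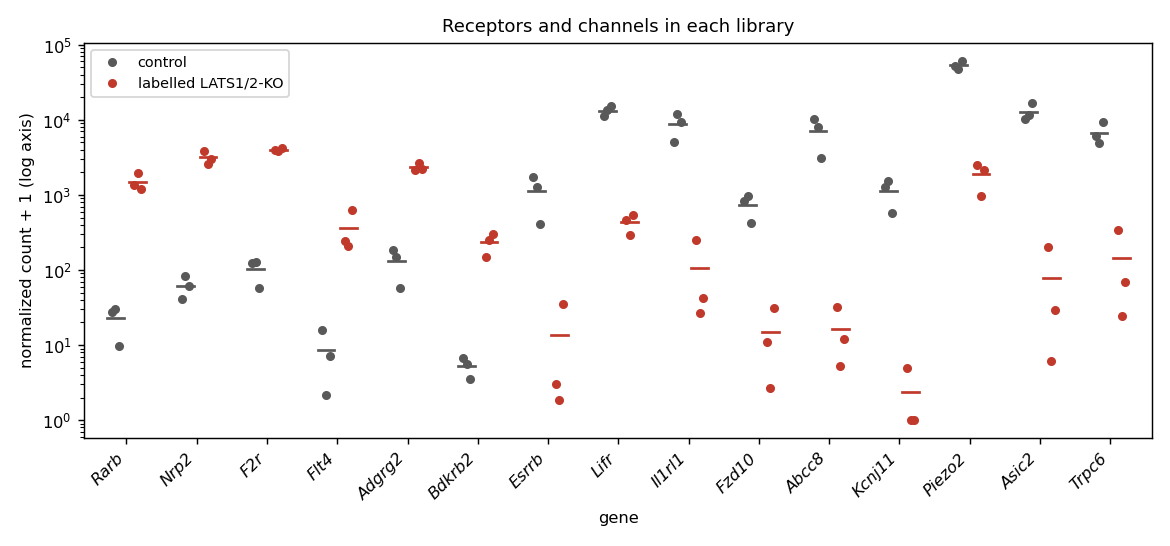
Normalized counts plus 1 (log axis) of receptors and channels named in the text, with 1 point per library and a line at the group mean, for control (grey) and the libraries labelled LATS1/2-KO (red). The groups do not overlap in any of the 15 genes, which was a condition of choice for those taken from the class ranks. Kcnj11 had no counts in 2 of the 3 labelled libraries.

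Transcription factors of the AP-1 and early response list fell as a list. Of 17 genes, 16 were tested, 13 fell and 0 rose (0 at the unadjusted p) (median log2 fold change -1.52), and 10 fell after the GC adjustment. These genes are induced rapidly by growth factors and stress, and Fos, Fosb and Jund were among the 8 largest losses in TPM of all called genes. The glands of both groups were chopped, digested with collagenase and sorted before RNA was taken. The part of this handling in the levels of these genes, and of Nr4a1 above, was not tested. Fosb had 416922, 318969.9 and 391177 normalized counts in control and 68703, 43881 and 47852 in the labelled libraries (log2 fold change -2.81 ± 0.27 SE, adjusted p = 2.15e-05 from edgeR's test). Fos fell from 5843, 5555 and 8545 to 2199, 3100.1 and 2511 TPM, and Jund from 4166, 3605 and 3844 to 918, 788 and 972 TPM, but Fos was not called with GC adjustment (log2 fold change -0.99). Egr3 fell from 3226 ± 1305 to 465 ± 133.5 normalized counts (SD, n = 3). The summed TPM of the list was 25545, 22926 and 28508 in control and 8095, 7781 and 7595 in the labelled libraries, with no overlap.

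Several lists of signal-responsive factors had more losses than gains. NF-kappaB, NRF and HIF factors had 8 lower and 1 higher of 15 tested (median log2 fold change -1.27), led by Hif3a, Epas1 and Hif1a. Hif1a, the hypoxia-inducible factor, fell from 17169, 23593 and 39336 to 5927, 6186 and 6669. The single gain was Nfe2l3, a relative of NRF2, from 675, 806 and 754 to 3475, 3563 and 3579. STAT and IRF factors had 6 lower and 1 (Irf7) higher of 15, and nuclear factor I, C/EBP and PAR bZIP factors 7 lower and 0 higher of 14, with 4 lower after the GC adjustment. At the unadjusted p, 2 of that list were higher. Stat5a, which carries the prolactin signal to the milk genes, fell from 5221, 5467 and 12048 to 469, 392.3 and 648 (15.1-fold lower, adjusted p = 1.29e-05 from edgeR's test).

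Further factors with large losses came from several lists. Spdef, an ETS factor of secretory cells, had 605, 891 and 792 in control and 82.2, 25.4 and 84.8 in the labelled libraries, and Elf3, an epithelial ETS factor, went from 20873 ± 4081 to 2847 ± 156 (SD, n = 3). Myb fell from 4108, 5549.8 and 9746 to 1374, 197 and 537, although its relative Mybl1 rose (238, 425 and 345 to 3688, 2857 and 2358). Trp63, which encodes the basal epithelial regulator p63, fell from 373, 2153 and 2133 to 70.2, 40.7 and 53.8, although Krt14, a keratin of the same layer, rose from 909, 501 and 606 to 252969, 140251 and 139506. Heyl, a Notch target, went from 405, 429 and 85.9 to 6.02, 5.93 and 0, Irf8 from 666 ± 116 to 25.6 ± 4.93 (SD, n = 3) and Pknox2 from 873 ± 198 to 36.03 ± 25.7 (SD, n = 3). In each of these the libraries of the groups did not overlap.

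The gains among transcription factors were fewer, and the largest came from genes near 0 in control. Sox11, a SOX factor of embryonic and neural tissue, had 1.16, 0 and 0 in control and 3500.2, 2272 and 6044 in the labelled libraries. The vestigial-like proteins are cofactors that bind TEAD factors in place of YAP and TAZ. Vgll3 (ENSMUSG00000091243, chromosome 16 from 65815257 to 65866368, plus strand) rose from 10.4, 3.40 and 8.71 to 2893, 4973 and 3696 (513-fold, adjusted p = 1.63e-07 from edgeR's test), and Vgll1 had no counts in any control library and 265, 159 and 169 in the labelled libraries, at least 55.9-fold higher when the control is set to 3 counts per library. Among the TEAD factors themselves, Tead1 (3019 ± 477 to 10289.9 ± 2838, SD, n = 3) and Tead4 (349 ± 32.1 to 1701 ± 328, SD, n = 3) rose, Tead1 being named after its values were seen, while Tead2 (14504 ± 2509.9 to 2838 ± 891, SD, n = 3) and Tead3 (4433 ± 337 to 1676 ± 170.0, SD, n = 3) fell. In TPM, which corrects for gene length, Tead2 was at 191 and Tead1 at 14.0 in control, and they were at 35.9 and 45.7 in the labelled libraries, so the order of their levels turned round. Tead3 was not called with GC adjustment (log2 fold change -0.85).

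The EYA proteins, transcriptional co-activators with phosphatase activity that act in organ primordia, also moved in both directions. Eya4 had 0, 1.13 and 0 in control and 345, 1162 and 668 in the labelled libraries, Eya1 had 1.16, 5.67 and 0 and 189, 505 and 552, and Eya2 fell from 5724, 5997 and 4885 to 942, 476 and 782. Sox21 rose from 15.1, 18.1 and 4.98 to 469, 571 and 625 and Foxf1, a mesenchymal forkhead factor, from 2.32, 6.80 and 0 to 146, 145 and 172. Foxj1, the regulator of motile cilia, named after its values were seen, rose from 2643, 3998 and 7582 to 15317, 16526 and 19252 (log2 fold change 1.85). The list of epithelial-mesenchymal transition factors also holds OVOL and GRHL factors, which are known to oppose that transition, and it had 6 higher and 1 lower (2 after the GC adjustment) of 13 tested. Twist1 rose from 3.18 ± 1.92 to 32.1 ± 12.3 normalized counts and Zeb2 from 21.0 ± 10.7 to 87.8 ± 31.6 (SD, n = 3). Of the opposing factors Grhl1 fell from 6323 ± 219 to 2346 ± 399 (SD, n = 3), and Ovol2, named after its values were seen, rose (log2 fold change 1.57). E2F, DP and MYB factors had 7 higher and 1 (Myb) lower of 13.

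Because deletion of LATS1/2 is expected to free YAP and TAZ to act with TEAD factors, the promoters of the highest-ranked transcription factor, receptor and secreted gene that hold the TEAD letters CATTCC in the 250 bases before their start are shown, from RefSeq on GRCm38.p6, 5′ to 3′ on the strand of the gene. Capitals mark CATTCC, or GGAATG where the letters lie on the opposite strand.
Vgll3, chr16:65814939-65815188, plus strand: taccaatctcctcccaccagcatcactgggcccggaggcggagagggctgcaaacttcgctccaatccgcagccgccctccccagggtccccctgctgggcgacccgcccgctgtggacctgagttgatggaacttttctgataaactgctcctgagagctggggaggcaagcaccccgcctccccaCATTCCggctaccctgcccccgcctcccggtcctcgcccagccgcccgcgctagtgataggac
Rarb, chr14:16575477-16575726, minus strand: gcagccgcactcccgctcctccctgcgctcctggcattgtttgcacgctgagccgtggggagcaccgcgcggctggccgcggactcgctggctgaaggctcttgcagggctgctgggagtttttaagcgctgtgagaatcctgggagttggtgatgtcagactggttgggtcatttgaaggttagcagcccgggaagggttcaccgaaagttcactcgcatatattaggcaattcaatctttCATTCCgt
Ogn, chr13:49607765-49608014, plus strand: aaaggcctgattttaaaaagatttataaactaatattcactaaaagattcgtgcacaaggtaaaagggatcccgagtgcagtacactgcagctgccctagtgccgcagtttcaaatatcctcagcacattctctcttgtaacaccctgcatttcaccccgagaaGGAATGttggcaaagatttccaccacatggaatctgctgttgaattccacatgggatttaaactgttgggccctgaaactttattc
The start of Rarb in this table lies inside the annotated span of the gene. The letters begin 63, 8 and 86 bases before the start in these genes. Ogn, which encodes the proteoglycan osteoglycin, rose from 25.5, 22.7 and 7.47 to 713, 5362 and 2225, and it was number 14 by rank among the secreted genes. The promoters of 9 genes ahead of it held no CATTCC, and Adamts5, Adam12, Fn1 and Fst had no entry. The Rarb promoter also holds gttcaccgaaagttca, a direct repeat of GTTCA searched for as GTTCA, 6 bases of any kind and GTTCA again, on both strands, after the sequence was seen, which is the known retinoic acid response element of this gene. That repeat was found before the start of 8 of the 12104 tested genes with a promoter (0.0661%).

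Across all promoters the TEAD letters were about as common in genes called higher as in genes called lower. CATTCC on either strand was found in the 250 bases before at least 1 start of 14.2% of 2126 genes called higher, 14.8% of 2342 genes called lower and 13.3% of all 12104 tested genes with a promoter. The AP-1 letters TGANTCA were found in 7.62%, 7.47% and 6.17%, the GATA letters AGATAA in 8.18%, 8.03% and 7.60%, and the E2F letters TTTCCCGC in 1.83%, 1.45% and 1.78%. The forkhead letters TGTTTAC were found in 2.49% of genes called higher, 4.23% of genes called lower and 2.90% of all. These shares are descriptions of 1 window, and distal enhancers, where TEAD factors mostly bind, were not examined.

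**Figure D3:**
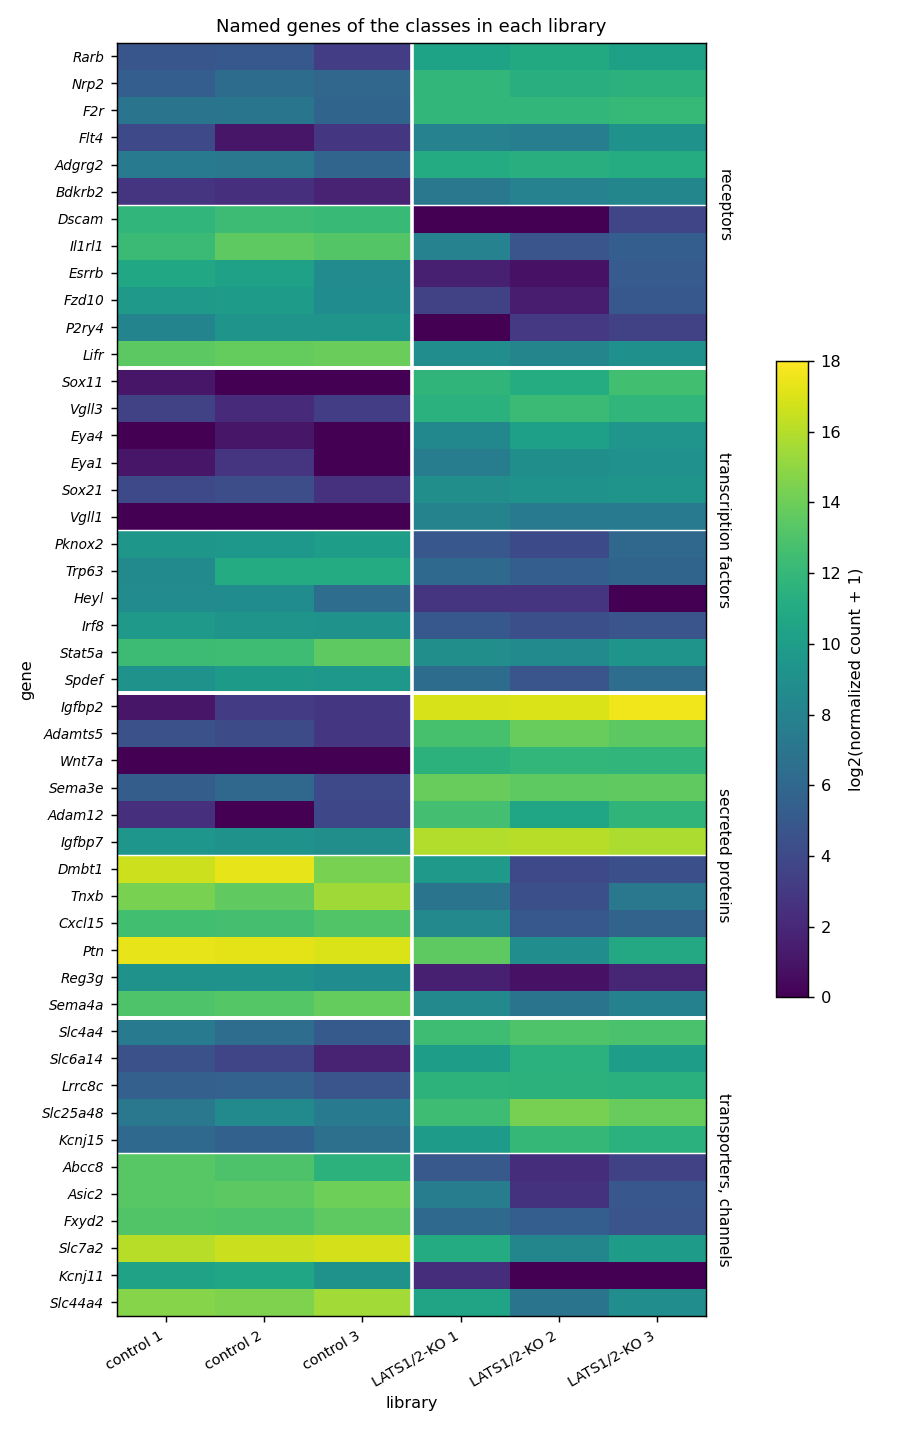
Normalized counts on the log2(normalized count + 1) scale in each of the 6 libraries (columns) for the 6 genes with the largest gain and the 6 with the largest loss in each class (rows), without the basal, luminal and YAP/TAZ target genes left out by the rule and with 1 gained channel not shown. Control libraries stand left of the white line, with the genes gained above those lost in each class. The groups do not overlap in any row because this was a condition of the choice, which 61.6% of all tested genes meet.

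Secreted proteins were gained in most lists, and some of the largest gains were in the IGF axis. Igfbp2 (ENSMUSG00000039323, chromosome 1 from 72824503 to 72852474, plus strand), which encodes a carrier of insulin-like growth factors, had 1.16, 7.94 and 6.22 normalized counts in control and 120448, 128314 and 195990.1 in the labelled libraries, and went from 0.0392, 0.275 and 0.210 to 4051, 4106 and 6367 TPM. Igfbp7, a matrix-associated relative, rose from 705, 594 and 478 to 63379, 68063 and 56354 (106-fold, adjusted p = 4.61e-08 from edgeR's test), and Htra1, a protease that cleaves IGF-binding proteins, from 1029 ± 287 to 22080.0 ± 1279 (SD, n = 3). At the same time Igfbp5, the most counted of the list in control, fell from 193595, 172227 and 102835 to 19119, 5614 and 7749, and Stc2, an inhibitor of the IGF-releasing protease PAPP-A, from 14318, 9372 and 54037 to 4039, 391 and 1661. In all, 7 of 15 tested genes rose and 4 fell, so some binding proteins rose while another fell.

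Matrix glycoproteins had the largest share of gains among the secreted lists, with 25 genes higher and 5 lower (10 without labelled replicate 1) of 46 tested (median log2 fold change 1.77), collagens 16 and 4 of 35, and laminins, nidogens and perlecan 7 and 2 of 15. Fn1, fibronectin, rose from 274, 60.1 and 175 to 36146, 9159 and 12562 (114-fold, adjusted p = 3.08e-05 from edgeR's test), and Efemp1, a fibulin, from 35.96, 47.6 and 14.9 to 5433, 3196 and 3148. Col12a1, a fibril-associated collagen, rose from 216, 307 and 294 to 13907, 20756 and 17168, and the basement membrane collagen Col4a2 from 251 ± 107 to 3755 ± 1001 (SD, n = 3). Against this trend Tnxb, tenascin X, fell from 21181, 12442 and 44777 to 120.4, 20.3 and 144 and Col6a3 from 1664, 4829 and 10599 to 387, 83.0 and 127. Fibroblast markers share genes with these lists, and of 11 tested Col1a1, Col1a2, Col3a1, Lum and Mfap5 rose and Dcn fell, although Col1a1, Lum and Dcn each lost their call when 1 or another library was left out and 3 rose without labelled replicate 1 or control replicate 1. Their summed TPM was 607, 534 and 814 in control and 516, 456 and 526 in the labelled libraries, with Gsn the most abundant and none at 0 in all libraries of a group, and their part in the matrix gains was not tested.

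Enzymes that remodel matrix were gained with it. Of 48 metalloproteinases tested, 21 rose and 10 fell. Adamts5, an aggrecanase, rose from 20.9, 17.01 and 6.22 to 6998, 14150.1 and 11249.9 (734-fold), Adam12 from 4.64, 0 and 13.7 to 6218, 1642 and 3467 and the collagenase Mmp13 from 12.8, 10.2 and 23.6 to 3722, 1556 and 2397. Protease inhibitors and serine proteases had 35 higher and 15 lower of 83. Timp3, an inhibitor of metalloproteinases and the most counted of that list, rose from 8675, 4823 and 4554 to 48632, 199525 and 109533 (19.8-fold), so inhibitor and enzymes rose at once. Serpina3n rose from 4.64, 1.13 and 2.49 to 409, 2663 and 1750.2. The epidermal protease Prss27 had no counts in control and 472, 1297 and 996 in the labelled libraries.

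Wnt ligands and secreted modulators had 8 higher and 2 lower of 18 tested, against 5 higher without control replicate 2 and 5 lower without labelled replicate 1. Wnt7a had no counts in any control library and 3031, 3801 and 3623 in the labelled libraries, Wnt10a had 2.32, 0 and 3.73 and 1253, 192 and 566, and Wnt7b, the most counted of them, rose from 6231, 5575 and 5383 to 22338, 21825 and 28357. Wnt4, which progesterone induces in hormone-sensing cells, fell from 14068, 8325 and 14498 to 4982, 1454 and 3426, and Dkkl1 from 11446 ± 3830.5 to 699 ± 400.5 (SD, n = 3). Of the Wnt feedback and target list, 4 genes rose and 3 fell of 13, with Nkd2 higher (30.2, 22.7 and 6.22 to 4768, 2793 and 3671) and Lgr5 lower (125, 98.7 and 138 to 31.1, 5.93 and 22.8).

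The TGF-beta superfamily showed gains of ligands and antagonists, 15 higher and 8 lower of 36 tested. Inhba, the activin A subunit, rose from 257, 115 and 119 to 14732, 8189.6 and 10180.0 (67.3-fold), and Fst, follistatin, which binds activin, from 108, 66.9 and 48.5 to 5374, 6635 and 7910.0 (89.2-fold). Gdnf, a ligand of the RET kinase, had 0, 3.40 and 0 in control and 1421, 183 and 731 in the labelled libraries. Ltbp1, which anchors latent TGF-beta in the matrix and was the most counted of the list, fell from 25607, 45833 and 61966 to 12979.9, 5789 and 8696.

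The list of semaphorins, netrins, slits and ephrins, guidance cues of neurons and vessels, had 8 higher and 13 lower of 36 tested. The named members that rose were secreted class 3 semaphorins and those that fell were membrane-bound. Sema3e, the ligand of plexin D1, rose from 39.4, 63.5 and 14.9 to 14108, 11611 and 12646 (325-fold, adjusted p = 1.18e-06 from edgeR's test), Sema3a had 0, 1.13 and 0 and 844, 849 and 1029, and Sema3c rose from 1648, 1366 and 1724 to 35837, 62699 and 47234. Sema4a fell from 8388, 9913 and 13524 to 362, 120.3 and 245 (43.7-fold lower), Sema4c from 9259.6 ± 2506 to 969 ± 316 and Sema7a from 1027 ± 575 to 116 ± 70.9 (SD, n = 3). Of the axon guidance receptors 4 rose, Nrp2 among them, and 4 fell of 17 tested (median log2 fold change 0.09). Plxna3, a plexin that pairs with neuropilins, fell from 7801, 11450.0 and 10978 to 656, 229 and 372, and Plxnb2, the most counted of the list, was not called (log2 fold change -0.53).

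EGF family ligands moved in both directions, 3 higher and 5 lower of 10 tested. Areg, amphiregulin, the ligand by which oestrogen acts on ductal growth, fell from 21128, 14833 and 41861 to 4763, 903 and 2523 (log2 fold change -3.25 ± 0.56 SE, adjusted p = 0.000768 from edgeR's test), and Nrg4 from 2073, 780.2 and 773 to 47.1, 13.6 and 11.9. Ereg, epiregulin, rose from 6.96, 0 and 12.4 to 768, 921 and 789, Nrg1 from 113, 86.2 and 126 to 2816, 1272 and 2153 and Hbegf from 9627, 8494 and 8388 to 24325, 21979 and 23895. The list of VEGF, PDGF, angiopoietin and neurotrophin ligands had 13 higher and 7 lower of 32. Ptn, pleiotrophin, the most counted of it, fell from 166720.3, 158497 and 130394 to 11586, 451 and 1858 and Vegfd from 236 ± 151 to 20.6 ± 15.3 (SD, n = 3), while Edn1, endothelin 1, rose from 1202, 1224 and 1572 to 27113, 15464 and 21413 and Angptl2 from 52.9 ± 26.1 to 1889 ± 435 (SD, n = 3).

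Immune signals also changed in both directions. Of 26 chemokines tested 12 rose, led by the monocyte and T cell attractants Ccl2 (30.2, 31.8 and 11.2 to 241, 585 and 706) and Ccl5 (15.1, 60.1 and 23.6 to 378, 685 and 556), and 5 fell. Cxcl15 fell from 6093, 6496 and 8884 to 361, 30.5 and 52.0 and Cxcl12, the ligand of CXCR4, from 277, 1622 and 8472 to 176, 76.3 and 152. Among the interleukins and colony-stimulating factors 12 of 28 rose and 5 fell, the losses including Il18, Lif and Il6. Spp1, osteopontin, was at 254, 352 and 24.9 in control and 2929, 3460.2 and 6464 in the labelled libraries. The summed TPM of the macrophage and leukocyte markers was 50.3, 36.4 and 32.3 in control and 159, 77.9 and 46.8 in the labelled libraries. These sums overlapped between the groups, labelled replicate 3 lying below control replicate 1, and among the labelled libraries the sum was highest in replicate 1, where Ccl2 and Spp1 were lowest. The part of these cells in the chemokine and interleukin gains was not tested.

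The largest secreted loss by the rank on log2(normalized count + 10) was that of Dmbt1, although Spock1 and Klk1, with no counts in any labelled library, had larger fitted log2 fold changes. Dmbt1, a mucosal scavenger protein of luminal epithelium, had 103167, 163369 and 21643 in control and 795, 14.4 and 20.1 in the labelled libraries, and Defb1, a beta-defensin, went from 3682 ± 2907 to 81.9 ± 85.1 (SD, n = 3). Reg3g, an antibacterial lectin, had 585, 615 and 438 in control and 2.01, 0.847 and 2.74 in the labelled libraries. Milk proteins and milk fat globule genes fell in 11 of 20 tested (median log2 fold change -2.04), and the 2 that rose were Plin2, which coats lipid droplets (4857, 5377 and 3577 to 31438, 26541 and 29145), and Fabp3, whose call was lost when control replicate 2, control replicate 3 or labelled replicate 2 was left out. S100 and annexin proteins, counted with the secreted lists although annexins act mostly inside cells, had 12 higher and 0 lower (2 at the unadjusted p) of 23. Anxa1 rose from 51753, 55627 and 72666 to 431277, 603894 and 489778, the largest gain in TPM of all called genes (1110.4, 1223 and 1556 to 9204, 12262 and 10096), and Anxa3 rose from 3343 ± 1509.7 to 90921 ± 22699 normalized counts (SD, n = 3).

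Among ion channels and transporters, both subunits of 1 channel were lost. Abcc8 and Kcnj11 encode SUR1 and Kir6.2, which together form the ATP-sensitive potassium channel known from pancreatic beta cells. Abcc8 had 10199, 8121 and 3099 normalized counts in control and 31.1, 4.24 and 10.9 in the labelled libraries (463-fold lower, adjusted p = 3.12e-05 from edgeR's test), and Kcnj11 had 1293, 1538 and 581 and 4.01, 0 and 0. Both had their lowest control value in control replicate 3 and their highest labelled value in replicate 1. The potassium channel list as a whole had 21 lower and 9 higher of 43 tested (median log2 fold change -1.61), and Kcnj15 was the largest gain, from 70.8, 47.6 and 99.6 to 1007, 4007 and 2883.

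Cation channels were among the large losses as well. Piezo2, a mechanically gated channel known from touch receptors and the most counted channel of its list, fell from 51403, 47799 and 61444 to 2532, 977 and 2119 (28.5-fold lower, log2 fold change -4.84 ± 0.37 SE, adjusted p = 6.94e-06 from edgeR's test). Asic2, an acid-sensing sodium channel, fell from 10262, 11577 and 16772 to 202, 5.08 and 28.3, and Trpc6, a calcium-permeable channel, from 6168, 4858 and 9322 to 342, 23.7 and 67.5. On the side of gains, Lrrc8c, a subunit of the volume-regulated anion channel, rose from 45.2, 49.9 and 26.1 to 3245, 3018 and 2692. The list of sodium, chloride, calcium and TRP channels had 26 lower and 17 higher of 86.

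Solute carriers fell more often than they rose, 82 against 41 of 280 tested. Slc7a2, a transporter of arginine and other cationic amino acids, fell from 67224, 94485 and 116488 to 2120.2, 307 and 968 (82.0-fold lower), and Slc44a4 from 26570.0, 23042 and 45539 to 1427, 122 and 457. Fxyd2, a regulatory subunit of the sodium pump, fell from 9009, 8341 and 12026 to 69.2, 40.7 and 25.5. Slc4a4, a sodium bicarbonate cotransporter, rose from 179, 83.9 and 33.6 to 5394, 8262 and 7184 (70.4-fold), Slc6a14, a broad amino acid transporter, from 20.9, 12.5 and 2.49 to 1077, 2933 and 1059.8, and Slc25a48, a mitochondrial carrier, from 148, 373 and 161 to 5539, 20251 and 14078. The list of aquaporins, connexins and pannexins had 8 higher and 5 lower of 18. The gap junction protein Gja1 (1274, 1623 and 1258 to 16611, 22533 and 12858) rose, while the water channels Aqp3 (909.8 ± 117 to 69.3 ± 53.4, SD, n = 3) and Aqp1 (7206 ± 4916 to 1039 ± 269, SD, n = 3) fell.

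Among the pathway lists the interferon-stimulated genes rose together. Of 40 genes tested, 27 rose and 0 fell (3 at the unadjusted p) (median log2 fold change 2.05), and 28 rose after the GC adjustment. Their products bind viral RNA or block viral replication and are induced by type I and III interferon. Ifit3 rose from 39.4, 73.7 and 85.9 to 2725, 2366 and 1638 (33.8-fold, adjusted p = 4.70e-05 from edgeR's test), Ifit1 from 198, 176 and 149 to 4238, 6069.8 and 3997 and Irf7, the interferon-induced factor that amplifies the response, from 1074, 1183 and 992 to 5292, 5893 and 5544. Every labelled library lay above every control library for these genes. The list of MHC class I and antigen processing, which interferon also induces, had 1 higher and 4 lower of 20, with 0 higher and 2 lower after the GC adjustment. Tap2, a peptide transporter subunit, fell from 18628, 17063 and 21806 to 4213, 4248 and 5632. Nlrc5, an activator of class I genes, fell from 2058, 1574 and 1808 to 657, 541 and 761.

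**Figure D4:**
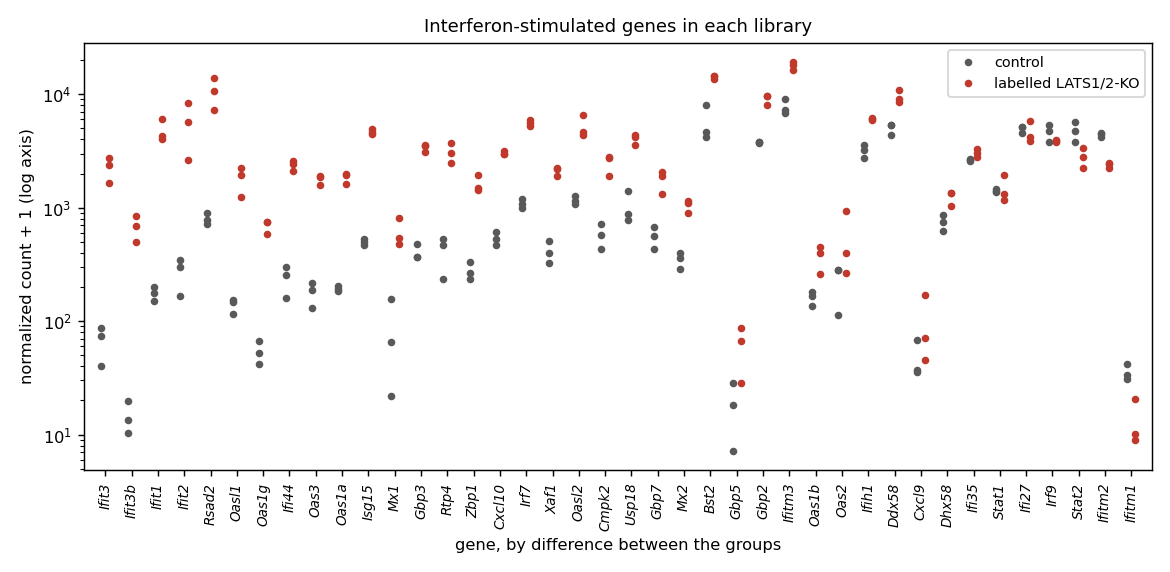
Normalized counts plus 1 (log axis) of the 40 interferon-stimulated genes, ordered by the difference between groups, with 1 point per library for control (grey) and the libraries labelled LATS1/2-KO (red). The groups stand apart in the genes on the left, such as Ifit3 and Ifit1, and overlap in some of those on the right.

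Hormone response genes fell. The oestrogen and progesterone response list had 14 lower and 4 higher of 25 tested (median log2 fold change -2.24). Greb1, an oestrogen receptor cofactor and target, fell from 4498, 4184 and 17219 to 461, 15.3 and 229.8. The prolactin, JAK2 and STAT5 list had 8 lower and 1 (Id2) higher of 17, and Id2 was not called with GC adjustment (log2 fold change 0.95). Btn1a1, butyrophilin of the milk fat globule, fell from 33963, 31369.8 and 10453 to 879, 2595 and 1809. Cited2, a CBP-binding cofactor, was the largest gain of the former list and rose from 1756, 1937 and 2005 to 11114, 17784 and 20786.

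The lists of fatty acid synthesis and of the clock had more losses than gains. Fatty acid and triglyceride synthesis had 13 genes lower and 1 higher (2 after the GC adjustment) of 29 tested. Dgat2, which makes triglycerides, fell from 21779.8, 18422 and 32903 to 639, 155 and 337 (64.7-fold lower, adjusted p = 1.11e-05 from edgeR's test), and Scd2, a desaturase, from 47431, 17229 and 28276 to 5204, 2676 and 4339. The circadian clock list had 10 lower and 1 (Ciart) higher of 20 (median log2 fold change -1.10). Ciart lost its call in 6 of the 14 alternative settings other than glmTreat. Cry2 was at 7667, 5778 and 7109 in control and 808, 1011 and 1418 in the labelled libraries. The hour at which the glands were taken is not given in the sources used here. NRF2 antioxidant genes had 11 lower and 2 higher of 29, and Gsta4 fell from 18632, 14045 and 10934 to 665, 308 and 317.

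Some large protein machines moved little or as a block. Oxidative phosphorylation subunits had a median log2 fold change of 0.06 over 78 genes with 1 higher (0 after the GC adjustment) and 1 lower, and cytosolic ribosomal proteins one of -0.0025 over 80 with 1 higher (3 after the GC adjustment) and 0 lower (8 at the unadjusted p). Proteasome subunits had 18 higher and 0 lower (0 at the unadjusted p) of 39 (median 0.90), with 11 higher after the GC adjustment. Unfolded protein response genes had 0 higher (6 at the unadjusted p, and 1 called after the GC adjustment) and 7 lower of 29. In the hypoxia list 6 genes rose and 8 fell of 26. Hk2 (11779.5, 9433 and 9042 to 1395, 641 and 1303) and Pfkfb3 (18566, 15758 and 15413 to 1472, 3009 and 2934), which act in glycolysis, fell, Lox, a collagen crosslinking enzyme, rose from 3.48, 1.13 and 8.71 to 584, 873 and 1243, and Ldha, the most counted of the list, was not called (log2 fold change 0.35). The list of glycolysis and pentose phosphate enzymes had 4 higher, among them the lactate transporter Slc16a1 (log2 fold change 1.57), and 7 lower of 28 tested (median -0.10).

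Genes of cell division rose as lists. Mitosis and the spindle checkpoint had 48 genes higher and 0 lower (0 at the unadjusted p) of 50 tested (median log2 fold change 3.62), and DNA replication 37 higher and 0 lower (1 at the unadjusted p) of 50 (median 1.52), where 17.1% of all tested genes were called higher. Ccnb1, which encodes cyclin B1, rose from 16.2, 65.8 and 24.9 to 1522, 2381 and 2278, and Rrm1, a subunit of ribonucleotide reductase and the most counted of the replication list, from 1910.3, 2488 and 1538 to 10772, 14295 and 14944. Every labelled library lay above every control library in both genes. Inhibitors of CDKs were among the genes that rose as well. Cdkn2a, which encodes the tumor suppressors p16 and ARF, went from 27.8, 27.2 and 9.96 to 4914, 749.8 and 1079 (104-fold, log2 fold change 6.68 ± 0.83 SE, adjusted p = 0.000104 from edgeR's test), and its neighbour Cdkn2b from 89.3, 71.4 and 95.8 to 4059, 1330.2 and 2027. All 9 called genes of the 21 cyclins, CDKs and CDK inhibitors tested were higher, with 3 lower at the unadjusted p, and after the GC adjustment 9 were called higher and 2 lower. Among p53 targets and the BCL2 family, Pmaip1, which encodes the pro-apoptotic NOXA, rose from 313, 440.0 and 407 to 7973, 4492 and 4239, while Trp53inp1 fell from 38943, 31827 and 79563 to 8447, 4578 and 4971 and Bcl2l11, which encodes BIM, from 6128, 5862 and 3424 to 1866, 1384 and 1656. The p53 response list had 8 higher and 5 lower of 30 (26.7% and 16.7%, against 17.1% and 17.5% of all tested genes).

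Most called adaptors of the Hippo pathway were higher. The Hippo kinases and adaptors list had 8 higher and 1 (Lats1) lower of 23 tested, and 8 higher and 2 lower after the GC adjustment. Amot, angiomotin, which holds YAP at junctions, rose from 1516, 1509 and 1362 to 31024, 42679 and 35549 (24.9-fold, adjusted p = 1.17e-07 from edgeR's test), and Ajuba, a LIM protein that inhibits LATS kinases, from 832, 667 and 778 to 8629, 6094 and 9211. The actin and contractile list had 21 higher and 4 lower of 47. Cald1, caldesmon, rose from 733, 917 and 444 to 88807, 75505 and 78121 and Fscn1, fascin, which bundles actin in filopodia, from 133, 88.5 and 82.1 to 10077, 6822 and 12324, whereas the smooth muscle myosin Myh11 fell from 691, 649.8 and 596 to 120.4, 129.6 and 167.

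Some embryonic and oncofetal genes were gained. Of 31 listed, 17 were tested, 11 rose and 2 fell (median log2 fold change 3.00), with 11 higher and 1 lower after the GC adjustment. A gene at 0 in control passes the count filter only through other libraries, so the filter favours gains among such genes. Dppa4, Lin28a, Pou5f1, Prame, Sall4 and Tdgf1 had no counts in any of the 6 libraries. The largest gains of the list, Msln and Upk1b, are also mesothelial markers. Igf2bp3, an RNA-binding protein of embryos and tumors, had 1.16, 2.27 and 0 in control and 138, 287 and 270.0 in the labelled libraries. The cadherins and desmosomal genes had 14 higher and 8 lower (5 after the GC adjustment) of 41. The desmosomal cadherin Dsg3, known from the epidermis, had 1.16, 1.13 and 0 and 4189, 2812 and 1780.3, and Cdh2, N-cadherin, rose from 65.0, 94.1 and 212 to 5427, 2832 and 5431. The neuronal cytoskeleton and synaptic genes had 9 higher and 4 lower of 27 tested (median log2 fold change 0.26). Nrxn2, a neurexin, fell from 93.9, 99.8 and 67.2 to 11.03, 11.9 and 10.9 and Nlgn2, a neuroligin, from 6433, 4949 and 5805 to 1362, 1117 and 1385, and Nrxn3 had 415, 615 and 1013 in control and 2.01, 5.08 and 0 in the labelled libraries. The neuronal proteins Uchl1 and Stmn2 had no more than 3 counts in a control library, with Uchl1 at 728, 430.4 and 809 and Stmn2 at 1444, 236 and 287 normalized counts in the labelled libraries.

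Outside all lists, the 8 largest gains were Crct1, Ccdc9b, Bst1, Dynap, Npr3, Ddah1, Lgals1 and Lrrn4cl. Npr3, the clearance receptor of natriuretic peptides, rose from 76.6, 66.9 and 29.9 to 11635, 13023 and 9324, and Lgals1, galectin 1, from 347, 235 and 229 to 43599, 30539 and 32288 (131-fold). The 8 largest losses were Ido1, Ptpn5, Prrt1, Padi2, Tox2, Gpx3, Cyp3a57 and Fgb. Ido1, which degrades tryptophan, fell from 12653, 18787 and 15441 to 50.1, 9.32 and 0.912, and Gpx3, a secreted glutathione peroxidase, from 367830.4, 394415 and 764014 to 9359, 952 and 3049.8. Gpx3 was also the largest loss in TPM of all called genes, from 12672, 13925 and 26266 to 321, 31.0 and 101, followed by Glul, glutamine synthetase, from 3539, 4283 and 5747 to 164, 183 and 164 TPM.

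The labelled cell type was checked against its markers. The summed TPM of 11 luminal markers was 34265, 34280.2 and 37212 in control and 37504, 36197 and 37453 in the labelled libraries, with Krt18 the most abundant, 0 markers higher (3 at the unadjusted p), 2 (Elf3 and Krt19) lower and none at 0. The calls moved with GC adjustment, under which Krt19 was not called (log2 fold change -0.56) and Krt18 (1.17) and Krt8 (1.07) were called higher. Krt19 also lost its call without control replicate 3, labelled replicate 2 or labelled replicate 3. The basal and myoepithelial markers summed to 184, 171 and 111 TPM and 9470.2, 5332 and 5267 TPM, with 4 higher and 4 lower of 10 tested. Krt14 held most of that sum, and Myh11 and Trp63 fell. The sums of the luminal markers rest mostly on keratins, and single markers differed, as Elf3 (log2 fold change -2.87) shows.

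Markers of cells outside the epithelium were read in full. The 9 adipocyte markers had 8 higher and 0 lower (0 at the unadjusted p), with 3 to 8 higher when 1 library was left out and 2 in the fit of the compared groups alone, and their sums were 5.50, 3.84 and 4.72 TPM in control and 7.97, 279 and 157 TPM in the labelled libraries. Cfd, the most abundant, was at 0 in every control library and had 0, 3093 and 1780.3 normalized counts in the labelled libraries, and Lep and Pck1 were also at 0 in control. The adipocyte signal was thus near the control level in labelled replicate 1, where Cfd, Cidec, Pck1 and Plin1 were at 0. The macrophage and leukocyte markers had 5 higher (Csf1r, the most abundant, Tyrobp and the 3 C1q genes) and 0 lower (0 at the unadjusted p) of 13, none of them at 0 in a whole group, and Tyrobp lost its call without control replicate 2, control replicate 3 or labelled replicate 1. C1qb was at 10.4, 4.54 and 18.7 in control and 351, 122.9 and 82.1 in the labelled libraries, highest in replicate 1. The part of these cells in the gene lists above was not tested.

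The 7 mesothelial markers summed to 5893, 6038 and 7475 TPM in control and 5964, 2894 and 3645 TPM in the labelled libraries, with Krt19, which luminal cells also express, the most abundant. Of 4 tested, Msln, Upk1b and Upk3b rose and Krt19 fell, with 0 lower after the GC adjustment. The Krt19 call was also lost without control replicate 3, labelled replicate 2 or labelled replicate 3. Wt1 and Gpm6a, also on the list, had no counts in any labelled library. A part of mesothelial RNA in the gains of Msln, Upk1b and Upk3b was not tested. The T and B lymphocyte markers summed to 11.03, 15.7 and 13.4 TPM and 8.89, 1.69 and 1.59 TPM, with Trbc2 the most abundant. Of 14 markers 3 were tested, with 0 higher (0 at the unadjusted p) and 2 lower. Trbc2 lost its call in the fit of the compared groups alone. It also lost it without control replicate 2, control replicate 3, labelled replicate 2 or labelled replicate 3. Cd3e, Ms4a1 and Trbc1 were at 0 in all 6 libraries. The pericyte and vascular smooth muscle markers summed to 171, 163 and 133.5 TPM and 33.4, 13.1 and 26.2 TPM, with Notch3 the most abundant, 1 higher and 3 lower of 6 tested. The lymphocyte and pericyte sums were lower in every labelled library than in any control library, and the mesothelial sums overlapped. Notch3, the most abundant of the pericyte list, is also on the Notch receptor list. Whether its counts came from pericytes was not tested.

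The Schwann cell and neuron markers summed to 46.8, 40.5 and 28.4 TPM in control and 31.7, 39.7 and 43.3 TPM in the labelled libraries, with Mbp the most abundant, 0 higher (0 at the unadjusted p) and 3 lower of 4 tested. The red blood cell and skeletal muscle markers summed to 9.11, 10.7 and 11.6 TPM and 13.2, 10.2 and 7.53 TPM, with Mylpf the most abundant, 1 higher and 1 lower of 4 tested. Both sums overlapped between the groups, as did that of the endothelial markers, of which Egfl7 was the most abundant and 1 rose and 1 fell (0 after the GC adjustment).

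**Figure D5:**
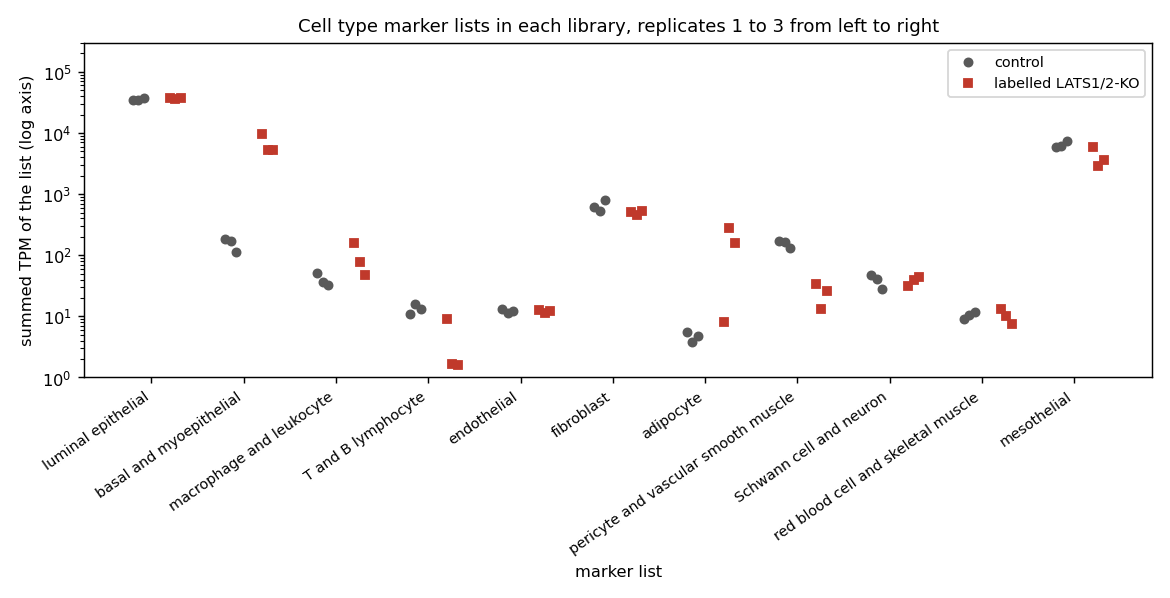
Summed TPM (log axis) of each cell type marker list in each library, for control (grey circles) and the libraries labelled LATS1/2-KO (red squares). Adipocyte markers are high in labelled replicates 2 and 3 and near the control level in replicate 1, basal markers are high in all labelled libraries, where Krt14 makes up most of the sum, and endothelial markers are level.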

How the data were processed

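RNA was sequenced from EYFP+ cells sorted from mammary glands. Per the submitters' processing notes and the study's methods, the authors aligned paired reads with STAR 2.6.0c to mm10, checked them with FastQC 0.11.7 and counted unique proper pairs per Ensembl gene with featureCounts (Subread 1.6.2), and the deposited values are raw counts of non-mitochondrial genes. The methods describe the counted pairs as same strand but do not say whether reads were matched to the strand of the gene, so antisense and overlapping genes may share reads.

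Of 55450 gene IDs, 55104 matched a symbol in the reference annotation. Counts were analysed with edgeR 4.0.16 in R 4.3.3 (filterByExpr, TMM, quasi-likelihood test, Benjamini-Hochberg adjustment over 19357 genes) with all 9 libraries in 3 groups. Genes were called where the log2 fold change exceeded 1 in size and the adjusted p did not exceed 0.05. With 3 libraries a side, an exact permutation of 1 gene cannot go below a two-sided p of 0.1. A fold against a group at 0 in all libraries was computed against 3 counts per library and covers counting error only. TPM used exon lengths of the annotation.

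The members and the 111 gene lists were chosen with earlier results of these data known. Named genes were, by the difference of group means of log2(normalized count + 10), the 6 highest and 6 lowest of each class whose libraries did not overlap, up to 3 called genes a direction and the most counted gene of each list, 8 a direction outside the lists, and the 8 largest gains and losses in TPM. The 15 basal and luminal genes of the study and 22 YAP/TAZ target genes were left out of the class ranks. The scripts were tested on simulated data. The alternatives were DESeq2 1.42.0, RLE scaling, TMM without the 100 most counted genes, no filter, a minimum of 10 counts, the compared groups alone, a replicate block, glmTreat, leaving out each library and, chosen after seeing the data, GC adjustment. Some genes that the rule names are not reported here.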

Additional observations from a re-analysis of the deposited data

How the results depend on the processing

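No call turned to the opposite direction in any of the 15 alternative settings. Of 234 called genes named in the text, 215 kept their call in those of the 14 settings other than glmTreat that tested them. Of 248 named genes, called or not, 160 had a value under the minimum of 10 counts. In the fit of the compared groups alone 241 had one, and with DESeq2 247. The setting glmTreat tests against a fold of 2 and by its construction calls fewer genes (1962 higher and 2043 lower in all, 68 receptors lower and 58 transporters and channels higher). A minimum of 10 counts in every library, which leaves out genes near 0 in a group, left 39 receptors, 26 transcription factors, 136 secreted proteins and 52 transporters and channels higher. When 1 library was left out, 2994 to 3509 genes were higher and 3174 to 3767 lower, with 59 to 64 receptors higher and 97 to 114 lower, 47 to 50 transcription factors higher and 89 to 101 lower, 202 to 215 secreted proteins higher and 117 to 147 lower, and 76 to 96 transporters and channels higher and 142 to 160 lower. The log2 fold change of Lats1 stayed between -1.54 and -1.41 and that of Lats2 between 0.38 and 0.61. The replicate numbers did not pair the libraries (correlations of deviations of -0.065, -0.0097 and -0.066 for the same number), and the fit with the replicate block gave 3193 genes higher and 3328 lower. Among genes that were not called, the sign turned for Gsn (0.12) and Esrra (0.20) with GC adjustment and for Plin1 with the replicate block (-0.30). It also turned when 1 library was left out, with log2 fold changes from -0.091 to 0.46 for Mylpf, -0.40 to 0.042 for Pecam1, -2.15 to 1.15 for Plin1 and -0.72 to 1.41 for Ptprc, and the cause was not tested. GC adjustment gave 3162 genes higher and 3118 lower, of which 2697 and 2751 were among the calls reported. Genes with few counts in a group are the least certain in size.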

Other observations

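Some gene groups lie outside the receptor, factor, secreted and transport classes. Cholesterol synthesis and uptake genes had 9 higher and 3 lower of 25 tested (17.1% and 17.5% of all tested genes), 5 higher without control replicate 2, and 6 higher and 1 lower after the GC adjustment. Hmgcs1, an early enzyme of the pathway, rose from 8901, 4283 and 7182 to 17846, 22473 and 22300.0 normalized counts, while Srebf2, the factor that activates these genes, fell from 27895, 19802 and 21013 to 10206, 8703 and 13632. Srebf2 lost its call without control replicate 1, without labelled replicate 2 and with GC adjustment. The libraries of the groups did not overlap in either gene. While Hmgcs1 rose, 13 genes of fatty acid and triglyceride synthesis fell, 1 rose and 15 were not called. Mitochondrial ribosomal proteins had 19 higher and 1 lower (0 after the GC adjustment) of 78. Their median log2 fold change was 0.61, against -0.0025 for the cytosolic ones.

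Histone genes split in 2 ways, 9 higher and 14 lower of 47 tested. The list also holds replication-independent genes such as H3f3b, its most abundant member, which was not called. Hist1h2ab had 1.16, 5.67 and 4.98 in control and 173, 109 and 73.9 in the labelled libraries, whereas Hist1h1e, a linker histone, fell from 823, 1081 and 1159 to 93.3, 61.0 and 54.7. The tight junction list had 7 higher and 4 lower of 35 tested, and Cldn4, its most counted gene, was not called (log2 fold change -0.48). Cldn1 rose from 1323, 1498 and 519 to 5812, 7183 and 5758, and Cldn8 fell from 2876, 3493 and 4349.8 to 422, 735 and 458. Scx, a factor known from tendon, rose from 148, 108 and 70.9 to 942, 1212 and 1212, and the decoy receptor Tnfrsf11b, osteoprotegerin, from 106, 101 and 92.1 to 1810.3, 1070.1 and 677. Tgm2, transglutaminase 2, was the most counted of the TGF-beta response list and fell from 152591, 130465 and 177959.8 to 21580.0, 26169 and 19572, although 12 genes of that list rose and 4 fell of 26. In each of these genes that rose or fell the 3 libraries of the groups did not overlap.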
